A study of Oryza sativa Japonica Group with 12 samples.

Results

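The genes described are those of the gibberellin (GA) and ethylene pathways of rice, chosen by name: every gene of the array annotation whose symbol or synonym in the RefSeq gene table begins with one of the usual names of a GA synthesis or perception gene (*GA20ox*, *GA2ox*, *GA3ox*, *KAO*, *KO*, *KS*, *GID*, *SLR*) or of an ethylene synthesis or signalling gene (*ACS*, *ACO*, *ETR*, *ERS*, *EIN*, *EIL*, *CTR*) followed by a number. The rule found 29 genes in the gene table, of which 26 had a probe set of their own (15 for GA and 11 for ethylene) among the 24160 genes that could be measured. Each of the 26 was read by a single probe set. *KO1*, *GID2* and *EIL1A* were found by name but had no probe set, and no *GA3ox*, *GA2ox*, *CTR* or numbered *KAO* gene was found.

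The study compared crown root (CR) primordia of seedlings of *Oryza sativa* ssp. japonica cv. Taichung 65 with the cortex of the same stem bases, to describe gene expression along CR formation. All plants were untreated, were grown for 5 days in Petri dishes and 3 days in flasks, and were sampled 8 days after sowing, when the stem base carries 3 rings of primordia. Laser microdissection of 15 µm sections gave 4 groups with 3 arrays each: early, intermediate and late CR primordia, from the top ring to the bottom one, and the cortex from the sections that held the primordia. Each array was made from a pool of 2 stem bases (6 in all), and each primordium array from all primordia of a ring, so a value is an average over the tissue collected and the cell types within it, and fewer cells of a type cannot be told apart from less RNA per cell. Values are the deposited log2 signals, on which a difference of 1 is a 2-fold change. A gene was said to rise or fall where limma's moderated test gave an adjusted p (Benjamini-Hochberg over 24161 probe sets) under 0.05 with a change of at least 1.5-fold.

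Gibberellins are diterpene hormones that promote cell elongation and division. They are made from geranylgeranyl diphosphate by *ent*-copalyl diphosphate synthase, *ent*-kaurene synthase, *ent*-kaurene oxidase and *ent*-kaurenoic acid oxidase, and are then brought to their bioactive form by GA 20-oxidases and GA 3-oxidases. Once GA is bound by the receptor GID1, the F-box protein GID2 directs the DELLA repressor SLR1 to degradation. Ethylene is made from S-adenosylmethionine by ACC synthases (ACS) and ACC oxidases (ACO), and its receptors (ETR and ERS) act as repressors that ethylene switches off, which frees EIN2 and the EIN3-like (EIL) transcription factors. In rice, ethylene and GA together are known to promote the emergence of adventitious roots at the nodes of submerged stems.

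Of the 15 GA genes, 1 fell in a CR primordium stage and none rose. Over all probe sets, 2.65%, 5.72% and 3.25% rose or fell in early, intermediate and late primordia. *GA20OX3*, a GA 20-oxidase gene, fell in intermediate primordia, by 0.83 on the log2 scale (1.78-fold, adjusted p = 0.0292). *SLR1*, the only DELLA gene of rice, read below every cortex array on all 9 primordium arrays, as did 4.97% of all probe sets. The *SLR1* changes lay between -0.59 and -0.54 and did not pass the test. None of the 11 ethylene genes rose or fell in any stage. The ACC oxidase gene *ACO1* and the receptor gene *ERS2* were the members of that group with whole stages beyond the cortex arrays. Depending on the stage, all its arrays lay below cortex for 11.6% to 15.4% of all probe sets, and above it for 12.4% to 16.1%.

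The tissue labels were checked on marker genes. Among 5 root primordium markers, *PSK1* and *OsSCR1* rose in early primordia, *PSK1* rose in intermediate primordia, and none rose in late primordia. The log2 of the 5 markers' summed signal ranged from 8.03 to 8.23 on early arrays and from 6.84 to 8.03 on intermediate arrays. It ranged from 6.04 to 7.01 on late arrays and from 5.98 to 6.45 on cortex arrays, which overlapped for these markers. The list held no *PLT* gene, because the names *PLT1* to *PLT6* matched no gene. The study reports *OsPLT1* and *OsPLT3* as upregulated in late primordia, and *OsPSK1* as decreasing after the early stage. Of 14 genes matched by names of dividing cell markers, which took in the homeobox genes *OSH43* and *OSH45*, 1, 2 and 0 rose in early, intermediate and late primordia. Of 5 photosynthesis genes, 2, 3 and 2 fell in early, intermediate and late primordia, and the log2 of their summed signal ranged from 4.58 to 4.88 on the primordium arrays and from 6.02 to 7.81 in cortex. No marker of vascular tissue (6 measured), epidermis (3) or defence (8) passed the test. The cortex arrays were not alike: the 98th percentile of the log2 signal was 8.46 in cortex replicate 1 against 7.48 and 7.54 in replicates 2 and 3, and it ranged from 8.66 to 9.06 on the primordium arrays.

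The late part of GA synthesis was represented by 2 GA 20-oxidase genes. *GA20OX3* read 3.66, 4.28 and 3.66 in cortex, 3.34, 3.16 and 3.21 in early primordia, 2.95, 2.87 and 3.29 in intermediate primordia and 3.17, 3.21 and 3.38 in late primordia. All 9 primordium arrays were below the 3 cortex arrays, among which replicate 2 was the highest. The mean was 3.87 ± 0.35 (SD, n = 3) in cortex and 3.04 ± 0.22 (SD, n = 3) in intermediate primordia, a difference of -0.83 with a standard error of 0.18. In early and late primordia the differences were -0.63 (adjusted p = 0.0847) and -0.61 (adjusted p = 0.081), and these did not pass the test. The call in intermediate primordia was lost when cortex replicate 2 was left out (change -0.62, adjusted p = 0.0709), and without intermediate replicate 1 (change -0.79, adjusted p = 0.117) or 2 (-0.75, 0.0988). It was also lost when all arrays of replicate 1, 2 or 3 were left out, with changes of -0.89, -0.54 and -1.06 (adjusted p = 0.0814, 0.337 and 0.162), so that the change shrank without replicate 2 and not without replicate 1 or 3. Without cortex replicate 1, *GA20OX3* passed the test in early (change -0.73, adjusted p = 0.0407) and late primordia (change -0.71, adjusted p = 0.039) as well.

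*GA20ox2*, the gene of the semi-dwarf locus *sd1*, read 2.70, 2.95 and 3.22 in cortex, 2.51, 2.41 and 2.56 in early, 2.60, 2.95 and 2.67 in intermediate and 2.58, 2.50 and 2.55 in late primordia. The early and late arrays lay below all cortex arrays, whereas the intermediate arrays overlapped them. The changes from cortex were -0.46, -0.21 and -0.41 in early, intermediate and late primordia (adjusted p = 0.111, 0.348 and 0.128). Cortex replicate 1 was the lowest of the 3 cortex arrays for this gene. Without it *GA20ox2* passed the test in early primordia (change -0.59, adjusted p = 0.0285), and against it alone the changes were -0.20, 0.04 and -0.15.

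**Figure D1:**
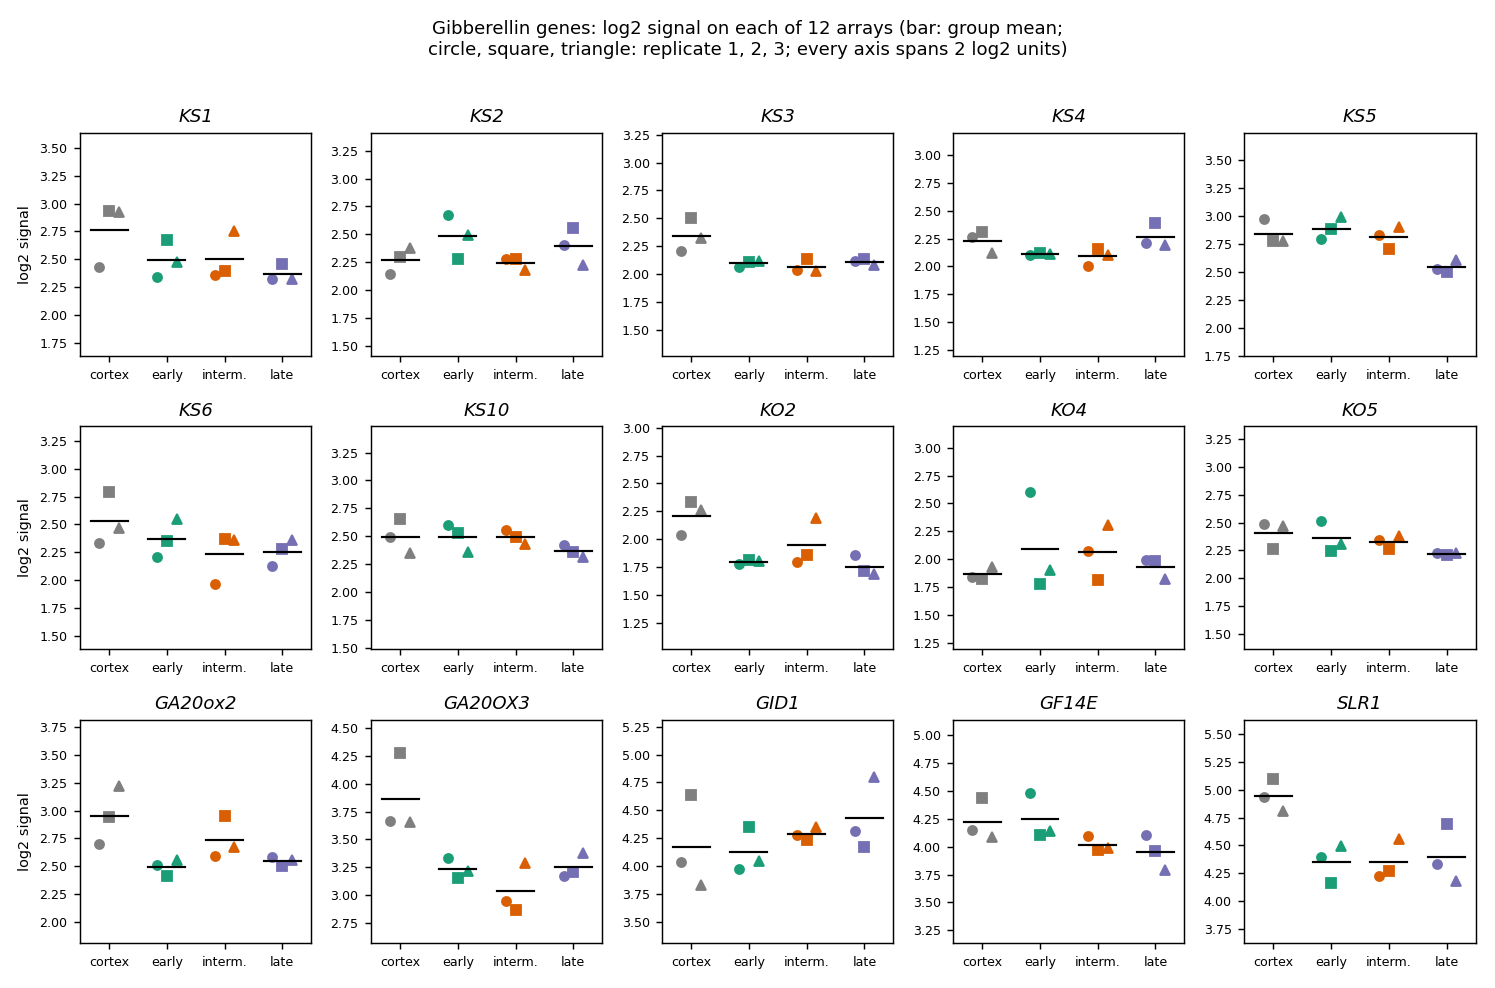
Log2 signal of the 15 GA genes on each of the 12 arrays, 1 panel per gene with an axis span of 2 log2 units, by tissue (cortex and 3 stages of CR primordia), with points for replicates and bars for group means. All 9 primordium arrays lie below all cortex arrays for *GA20OX3*, *SLR1* and *KS3*. For *KS1*, *KS2*, *KS6*, *KS10* and *KO4* each stage overlaps cortex at a low signal.

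GA perception was represented by the receptor gene *GID1* and the DELLA gene *SLR1*. *SLR1* read 4.93, 5.09 and 4.81 in cortex, 4.40, 4.16 and 4.50 in early, 4.23, 4.27 and 4.56 in intermediate and 4.33, 4.69 and 4.18 in late primordia. The highest primordium array (late replicate 2) was below the lowest cortex array. The changes were -0.59, -0.59 and -0.54 in early, intermediate and late primordia, each with a standard error of 0.16, and the adjusted p-values were 0.0769, 0.0552 and 0.0854. When the arrays were quantile normalized again, the *SLR1* changes became -0.91, -0.93 and -0.85, and *SLR1* passed the test in early (adjusted p = 0.0478) and intermediate primordia (adjusted p = 0.0363). By the same test, *SLR1* passed in only this 1 of 26 other settings in early and in intermediate primordia. In late primordia it passed in 0 of 26.

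*GID1* read 4.04, 4.64 and 3.83 in cortex, 3.97, 4.35 and 4.05 in early, 4.28, 4.24 and 4.35 in intermediate and 4.31, 4.17 and 4.80 in late primordia. The cortex arrays spanned the values of every early and intermediate array. The changes were -0.04, 0.12 and 0.26, with 95% intervals of -0.53 to 0.45, -0.36 to 0.61 and -0.23 to 0.75. A gene that carries *GID2* among its synonyms is named in RefSeq for *GF14E*, a 14-3-3 protein, and is not the F-box gene, which lies near it and had no probe set. *GF14E* read 4.15, 4.43 and 4.09 in cortex, and its changes were 0.02, -0.21 and -0.27 in the 3 stages (adjusted p = 0.951, 0.363 and 0.27).

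The early part of the pathway was represented by kaurene synthases and kaurene oxidases, both of which are small families in rice. *KS1* is the *ent*-kaurene synthase gene of GA synthesis. It read 2.43, 2.94 and 2.93 in cortex, 2.35, 2.68 and 2.47 in early, 2.36, 2.40 and 2.76 in intermediate and 2.33, 2.46 and 2.33 in late primordia. The groups overlapped at each stage, with cortex replicate 1 within the range of the primordium arrays, and the changes of -0.27, -0.26 and -0.39 had adjusted p-values of 0.394, 0.325 and 0.185.

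*KO2* (*D35*) is the *ent*-kaurene oxidase gene of GA synthesis. It read 2.04, 2.34 and 2.26 in cortex, 1.77, 1.82 and 1.81 in early, 1.79, 1.86 and 2.19 in intermediate and 1.86, 1.71 and 1.69 in late primordia. Early and late arrays were all below the cortex arrays, and intermediate replicate 3 was within their range. The changes were -0.41, -0.26 and -0.46 (adjusted p = 0.113, 0.212 and 0.0776).

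The other members of these families are named after the GA enzymes, but several are known to make diterpenoid phytoalexins, the antimicrobial compounds of rice, in place of GA. Of the 6 further kaurene synthase-like genes, *KS3* (*KSL7*, phytocassane synthesis) read 2.20, 2.50 and 2.32 in cortex and between 2.03 and 2.13 on all 9 primordium arrays. The *KS3* changes were -0.25, -0.28 and -0.23, and the adjusted p-values were 0.205, 0.112 and 0.201. *KS5* (*KSL6*) read 2.53, 2.50 and 2.61 in late primordia, against 2.97, 2.78 and 2.78 in cortex and 2.79, 2.89 and 2.99 in early primordia. The late arrays of *KS5* were thus below all arrays of both groups, by 0.30 from cortex (adjusted p = 0.134) and by 0.34 from early primordia (adjusted p = 0.616). The changes of *KS2*, *KS4* (*KSL4*, momilactone synthesis), *KS6* and *KS10* lay between -0.30 and 0.21 in all stages, and those of the kaurene oxidase-like genes *KO4* and *KO5* between -0.19 and 0.23. *KO4* owed its early mean to 1 array, which read 2.60 where the other early arrays read 1.78 and 1.90.

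Several of these genes are neighbours on the chromosomes: *KS1* and *KS2* were adjacent on chromosome 4, *KO4*, *KO1* and *KO2* formed a run on chromosome 6, and *KS5* and *KS6* had 1 gene between them on chromosome 2. Whether a probe set also bound the transcripts of such a relative was not tested. All 10 kaurene synthase and oxidase members and *GA20ox2* had a mean signal below the array-wide median of 2.89, and the deposited values carry no detection call.

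Over the 15 GA genes, 1 passed the test in intermediate primordia, where 5.72% of all probe sets passed, 3.21% by rising and 2.51% by falling. None passed in early primordia (2.65% of all probe sets, 1.7% rising and 0.952% falling) or late primordia (3.25%, 1.61% rising and 1.64% falling). At an unadjusted p under 0.05, 5, 3 and 7 GA genes differed in early, intermediate and late primordia, all lower than in cortex, while 21.1%, 28.3% and 24.5% of all probe sets differed in either direction and 9.9%, 14.1% and 12.1% were lower. Every array of the stage lay below every cortex array for 6, 3 and 7 GA genes (11.6%, 15.4% and 14.2% of all probe sets), and above for none (12.4%, 16.1% and 13.2%). For 3 GA genes, *GA20OX3*, *SLR1* and *KS3*, all 9 primordium arrays were below the cortex arrays, as they were for 4.97% of all probe sets. All 3 comparisons share the 3 cortex arrays, so these counts are not independent of each other. At the thresholds of the study's methods, an unadjusted p under 0.01 with a 1.5-fold change, 2 (*GA20OX3* and *SLR1*), 2 (the same genes) and 1 (*GA20OX3*) GA genes and 0 ethylene genes were called in early, intermediate and late primordia, as were 7.02%, 9.79% and 7.82% of all probe sets.

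The median change of the 15 GA genes was -0.12, -0.21 and -0.27 in early, intermediate and late primordia, with 11, 13 and 11 genes lower, against -0.03, -0.03 and -0.02 over all probe sets, of which 54.9%, 53.6% and 52.8% were lower. Genes with a signal below the array-wide median, among them 11 of the GA genes, had medians of -0.10, -0.12 and -0.10, and 70.3%, 69.9% and 67.5% of them were lower in the stage than in cortex. Of those 11 GA genes, 8, 10 and 8 were lower, with medians of -0.12, -0.14 and -0.23. The cortex arrays also differed among themselves: in replicates 2 and 3 the signal of dim genes was higher than in replicate 1 by a median of 0.13 (70.4% of them higher), and that of the GA genes by 0.19 (12 of 15 higher). This gap was 0.30 for *GA20OX3* and 0.02 for *SLR1*, and it was negative for *KO5*, *KS4* and *KS5*. For *GA20OX3* it came from cortex replicate 2 (4.28) alone, as replicates 1 and 3 both read 3.66. Against cortex replicate 1 alone, the medians of the GA genes were -0.08, -0.10 and -0.12 and those of all dim genes -0.00, -0.02 and -0.01. What part the cortex arrays had in the low GA values was not tested.

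**Figure D2:**
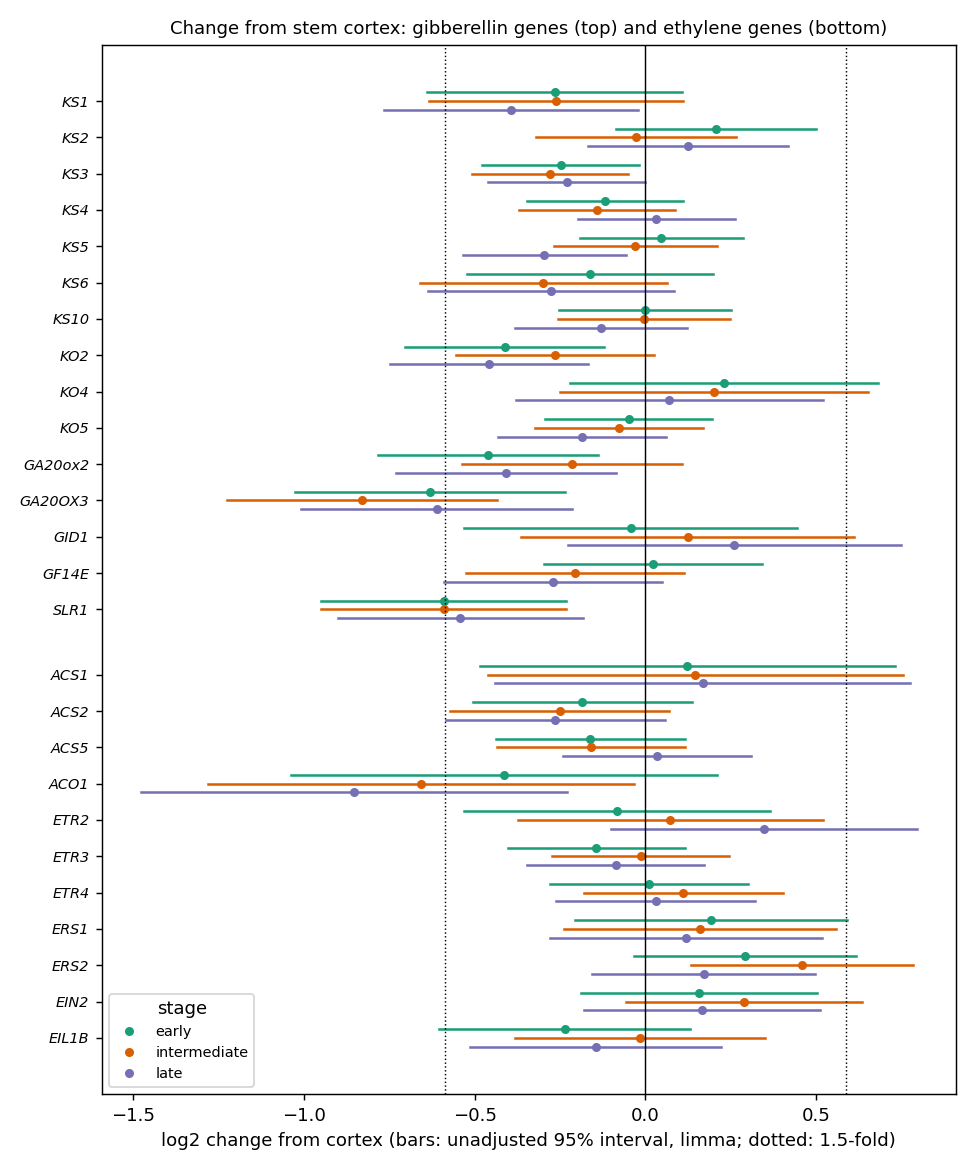
Log2 change from cortex of each GA gene (upper block) and ethylene gene (lower block) in early, intermediate and late CR primordia, with unadjusted 95% intervals from limma (lines) and the 1.5-fold bounds (dotted). The point for *GA20OX3* in intermediate primordia, at -0.83, is the only one that passed the test, and the *ACO1* intervals are the widest among the ethylene genes.

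Ethylene synthesis was represented by 3 ACC synthase genes and 1 ACC oxidase gene. *ACO1* read 4.57, 4.28 and 4.92 in cortex, 3.63, 4.86 and 4.06 in early, 3.88, 4.01 and 3.92 in intermediate and 3.80, 3.98 and 3.44 in late primordia. All intermediate and late arrays were below the cortex arrays, but early replicate 2 read almost as high as the highest of them. The changes were -0.41, -0.66 and -0.85 with a standard error of 0.28 (adjusted p = 0.43, 0.158 and 0.108). The early change of *ACO1* depended on single arrays: it was -0.75 without early replicate 2 and -0.14 without early replicate 1 (adjusted p = 0.167 and 0.79). The gene table gives *ACO1* to the locus LOC4347225, and whether that is the locus the study calls *OsACO1*, which it names by another annotation, was not settled.

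The ACC synthase genes had a low signal and changed little. *ACS1* read 2.51, 2.84 and 2.60 in cortex and 2.35, 2.46 and 3.58 in intermediate primordia, with the early and late arrays between 2.56 and 2.94. Intermediate replicate 3 was alone above 3, and the changes of 0.12, 0.14 and 0.17 had adjusted p-values of 0.83, 0.748 and 0.732. *ACS2* read 2.45, 3.00 and 2.81 in cortex and between 2.40 and 2.67 on the 9 primordium arrays, with cortex replicate 1 within their range. Its changes were -0.18, -0.25 and -0.26, and those of *ACS5* were -0.16, -0.16 and 0.03, none of which passed the test.

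Of the 5 ethylene receptor genes, *ERS2* was the one with a stage beyond the cortex arrays. It read 3.11, 3.00 and 3.25 in cortex, 3.55, 3.29 and 3.39 in early, 3.38, 3.75 and 3.60 in intermediate and 3.52, 3.10 and 3.25 in late primordia. All early and intermediate arrays were above the cortex arrays, and the late arrays overlapped them. The changes were 0.29, 0.46 and 0.17 (adjusted p = 0.289, 0.0807 and 0.494).

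*ERS1*, the other receptor gene of the ERS type, read 5.29, 4.75 and 5.15 in cortex and between 5.01 and 5.56 in the primordia, with changes of 0.19, 0.16 and 0.12. *ETR2* read 2.87, 3.03 and 3.01 in cortex and 3.01, 3.51 and 3.43 in late primordia, where its change of 0.35 had an adjusted p of 0.31. In early and intermediate primordia the *ETR2* changes were -0.08 and 0.07. *ETR3* differed from cortex by -0.14, -0.01 and -0.09 and *ETR4* by 0.01, 0.11 and 0.03, and the arrays of the groups overlapped for both genes at each stage.

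Downstream of the receptors, *EIN2* (*MHZ7*) read 2.65, 2.26 and 2.40 in cortex, 2.67, 2.38 and 2.73 in early, 2.95, 2.61 and 2.62 in intermediate and 2.58, 2.46 and 2.78 in late primordia. The groups overlapped at each stage, and the changes of 0.16, 0.29 and 0.17 had adjusted p-values of 0.597, 0.248 and 0.532. The transcription factor gene *EIL1B* read 2.74, 3.11 and 2.79 in cortex, and its changes were -0.24, -0.02 and -0.15 (adjusted p = 0.443, 0.958 and 0.611). *EIL1A* (*MHZ6*), which lies next to *EIL1B* on chromosome 3, had no probe set.

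**Figure D3:**
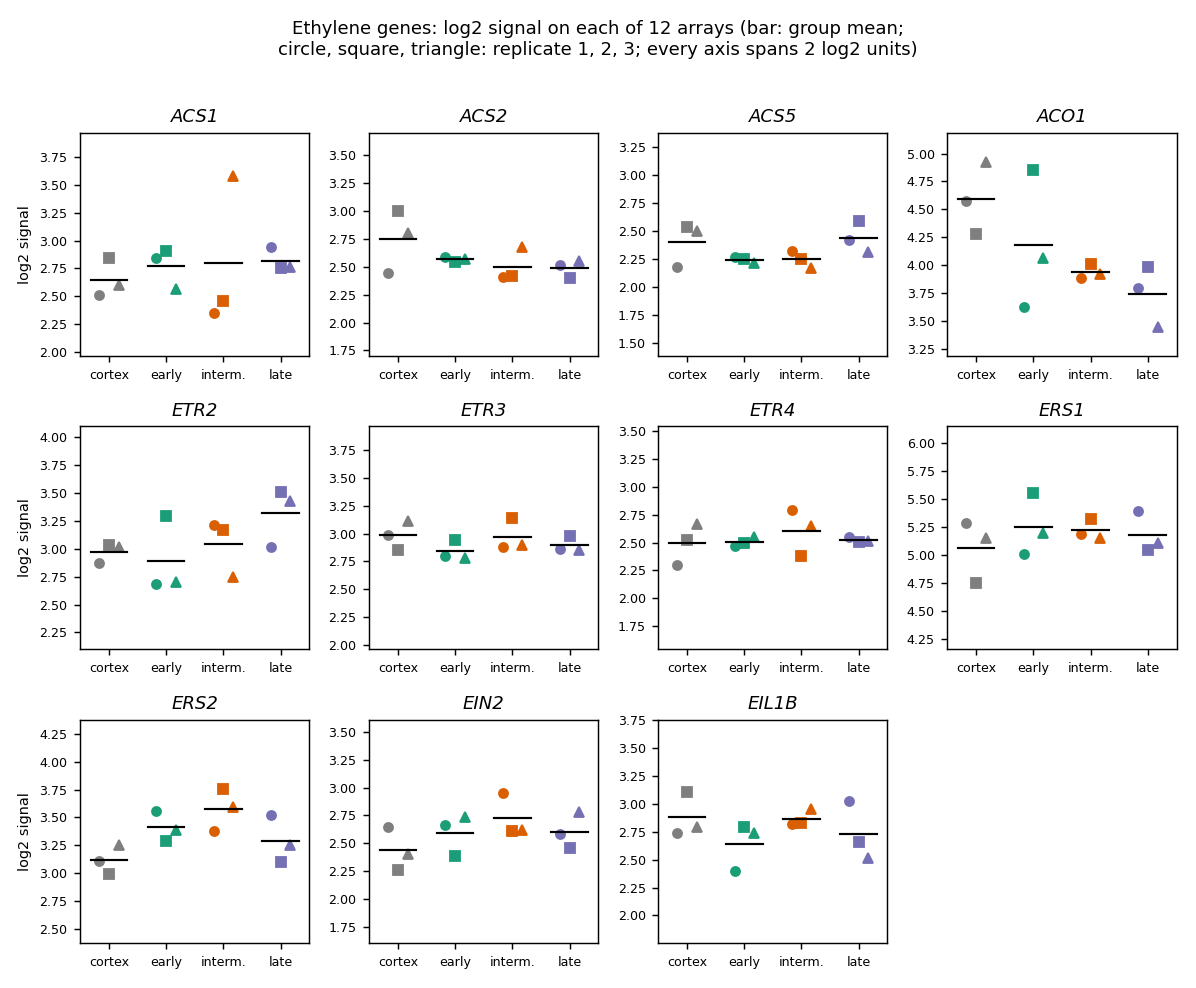
Log2 signal of the 11 ethylene genes on each of the 12 arrays, 1 panel per gene with an axis span of 2 log2 units, by tissue, with points for replicates and bars for group means. *ACO1* is below cortex on all intermediate and late arrays with early replicate 2 at 4.86, *ERS2* is above cortex on all early and intermediate arrays, and *ACS1* has a single high array, at 3.58.

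Over the 11 ethylene genes, limma called 0 in each stage against cortex (2.65%, 5.72% and 3.25% of all probe sets). At an unadjusted p under 0.05, 0, 2 (*ACO1*, lower, and *ERS2*, higher) and 1 (*ACO1*) differed in early, intermediate and late primordia (21.1%, 28.3% and 24.5% of all probe sets). All arrays of the stage were below cortex for 0, 1 and 1 ethylene genes (11.6%, 15.4% and 14.2% of all probe sets) and above it for 1, 1 and 0 (12.4%, 16.1% and 13.2%), which is near or below the share over the whole array. For no ethylene gene were all 9 primordium arrays on the same side. The median change was -0.08, 0.07 and 0.03, with 6, 5 and 4 of 11 genes lower. The unadjusted 95% intervals kept the change within 2-fold for 10 of the 11 ethylene genes in each stage, with *ACO1* as the exception, and for 14 of the 15 GA genes, with *GA20OX3* as the exception. Whether the 2 hormones' genes differed from each other was not tested.

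The stages were also compared with each other. No GA or ethylene gene rose or fell between late and early primordia by limma, as was the case for all probe sets (0% called), and at an unadjusted p under 0.05 1 GA gene (*KS5*) and 0 ethylene genes differed (6.2% of all probe sets). *GA20OX3* and *SLR1* differed by 0.02 (95% interval -0.38 to 0.41) and 0.05 (-0.31 to 0.41) between late and early primordia. *ACO1* was lower by 0.44 (95% interval -1.06 to 0.18), and *ETR2* was higher by 0.43 (-0.02 to 0.88). A moderated F test over the 4 groups called 0 GA and 0 ethylene genes (1.57% of all probe sets). At an unadjusted F p under 0.05 there were 5 GA genes, *GA20OX3*, *GA20ox2*, *KO2*, *KS5* and *SLR1*, and 0 ethylene genes (20.2%), and the smallest adjusted p was 0.0925, for *GA20OX3*.

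A comparison of the 3 stages together with cortex was added after the values had been seen. *GA20OX3* fell by 0.69 in it (adjusted p = 0.017), the only member called where 9.32% of all probe sets were. *SLR1* (-0.57, adjusted p = 0.0228) and *KO2* (-0.38, adjusted p = 0.0439) had an adjusted p under 0.05 with a change of less than 1.5-fold (13.2% of all probe sets had such a p at any size of change). At an unadjusted p under 0.05, 6 GA genes were lower, *ACO1* was lower and *ERS2* was higher. Of all probe sets 32.1% differed in either direction, 16.3% lower and 15.8% higher. Without cortex replicate 2 the *GA20OX3* change was -0.49 with an adjusted p of 0.0719. The call was also lost without replicate 2 of all groups (change -0.44, adjusted p = 0.269). It was lost without replicate 3 (change -0.85, adjusted p = 0.115) although the change was larger, and was kept without replicate 1. The cause of these losses was not tested. Against cortex replicate 1 alone, a group of 1 array that was assumed to vary like the others, the change was -0.49.

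**Figure D4:**
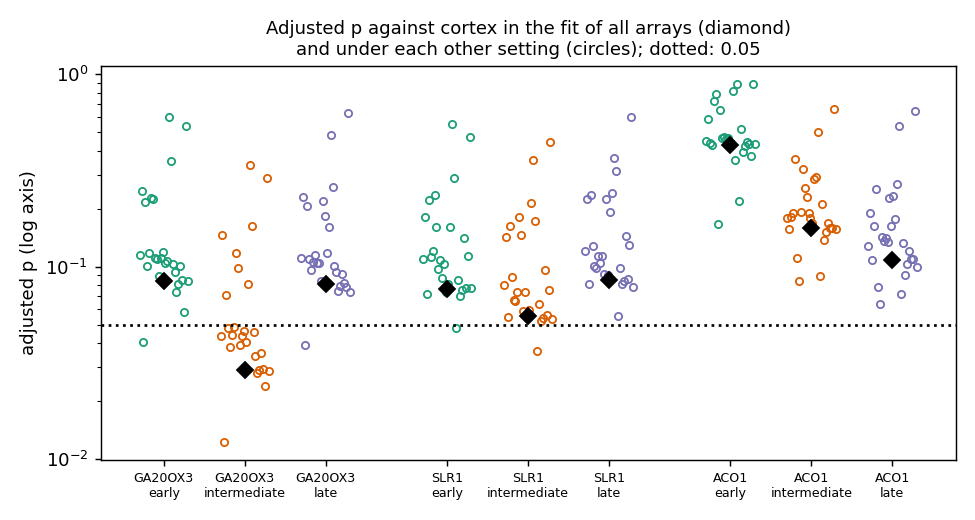
Adjusted p of *GA20OX3*, *SLR1* and *ACO1* against cortex in each stage (log axis), with a diamond for the fit of all 12 arrays, circles for the other settings of the analysis and a dotted line at 0.05. *GA20OX3* in intermediate primordia lies on both sides of the line, from 0.0123 to 0.337, and *ACO1* lies above it under every setting.

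The rest of each pathway was read from wider name lists. The GA names matched 10 further genes, among them *OsELA1*, which is annotated as an early nodulin-like protein. Of these genes, 0 passed the test in any stage (2.65%, 5.72% and 3.25% of all probe sets). Their medians were -0.22, -0.27 and -0.21, with 8 of 10 lower in each stage, where 54.9%, 53.6% and 52.8% of all probe sets and 70.3%, 69.9% and 67.5% of dim ones were lower. *CPS1*, the *ent*-copalyl diphosphate synthase gene of GA synthesis, changed by -0.18, -0.14 and -0.19, and *KAO*, for *ent*-kaurenoic acid oxidase, by -0.23, -0.32 and -0.23. *EUI* (*EUI1*), whose product inactivates GA, changed by -0.40, -0.54 and -0.57 (adjusted p = 0.23, 0.085 and 0.093 in the 3 stages). The 2 genes that were higher in each stage, named here after their values were seen, were *SLRL1*, a DELLA-like gene, and *SPY*, a repressor of GA signalling.

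Of 16 further names of the ethylene list 14 had a probe set, and 0 passed the test, with medians of -0.04, 0.07 and 0.14. Over all probe sets, 2.65%, 5.72% and 3.25% passed it in early, intermediate and late primordia. The S-adenosylmethionine synthetase genes *SAM1* and *SAM2*, named here after their values were seen, changed by -0.37, -0.39 and -0.27 and by -0.05, 0.34 and 0.59. Neither passed the test in any stage. This list held genes matched only by name, among them *RTEL1*, the *MtN3*-like sugar transporter genes and the *OsRan1* genes, which encode Ran GTPases. Of 15 AP2/ERF transcription factor genes matched by name, a small part of that family, 14 were measured, and 0 passed the test. Their medians were -0.15, -0.14 and -0.16, with 12, 10 and 10 genes lower. So were 54.9%, 53.6% and 52.8% of all probe sets and 70.3%, 69.9% and 67.5% of dim ones. The list held no gene matched as *ERF61*, *ERF79*, *ERF99*, *ERF120* or *CRL5*. At its own thresholds, the study reports *ERF61* as upregulated and the others as downregulated in some or all stages.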

How the data were processed

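RNA of laser-microdissected tissue was hybridised to 12 biotin-labelled rice gene arrays (4 groups, 3 replicates). The deposited table holds log2 signals of 36643 probe sets, background-corrected, normalized and summarised by the authors. The submitters' processing notes name GCRMA and Affymetrix Expression Console, whereas the study's methods name RMA, and which was used was not settled. GCRMA reads dim probe sets lower than RMA does, which would alter their changes. The genome build of the probe annotation is not given in the sources used here. The annotation gave 24161 probe sets 1 gene, 90 several and 12392 none, and gene names followed RefSeq (assembly ASM3414082v1).

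A group-means model with eBayes (limma 3.58.1, R 4.3.3) was fitted to the 12 arrays, with no floor or pseudocount. The script was tested on simulated data. Calls needed an adjusted p under 0.05 and a 1.5-fold change. The members and lists were chosen with earlier results of these data known. Named were all members called, all members with a stage beyond the cortex arrays and a 2-fold change (there were 0), and the central genes of each pathway, with the other members given by count, range or name. Alternatives were a replicate block, other normalizations, filters on dim probe sets, other variance priors, array weights, the study's thresholds (unadjusted p under 0.01), 2-group fits and leaving out arrays. Same-numbered arrays came from the same pair of stem bases per the labels. Of 18 pairs of same-numbered arrays from different groups, 7 deviated together (r above 0.1, range -0.31 to 0.35, mean 0.05). Pairs of arrays with different numbers had a mean r of -0.03 and reached 0.26. Deviations from the mean of 3 arrays cancel within a group, so this mean r was not independent of that of same-numbered pairs. The consensus correlation of same-numbered arrays over all genes, estimated by limma, was -0.02. P-values measure the spread between 3 pools per group. The number of arrays limits the precision: 95% intervals extended 0.23 to 0.49 on each side for GA genes and 0.26 to 0.62 for ethylene genes. No sequence was printed and no promoter motif was searched here.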

Additional observations from a re-analysis of the deposited data

How the results depend on the processing

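The number of GA genes called in intermediate primordia, 1, became 0 when only the 2 groups compared were fitted and against cortex replicate 1 alone, and 2 (*GA20OX3* and *SLR1*) after a further quantile normalization and at the study's thresholds. It ranged from 0 to 1 when arrays were left out. In early primordia, 0 became 1 after quantile normalization and 2 at the study's thresholds, and ranged from 0 to 2 when arrays were left out. In late primordia, 0 became 1 at the study's thresholds and ranged from 0 to 1. The F test called 1 GA gene at the study's thresholds. For the 3 stages together, an added comparison, 1 GA gene became 2 after quantile normalization, 0 against cortex replicate 1 alone and 3 with no minimum change, with 0 to 2 when arrays were left out, and 0 ethylene genes became 1 (*ACO1*) after quantile normalization, with 0 to 1 when arrays were left out (*ACO1* without early replicate 2). The number of probe sets called over the whole array moved as well: in intermediate primordia it was 1382, against 2 in the fit of 2 groups, 115 against cortex replicate 1 alone, 0 without replicate 2 and 3633 without cortex replicate 1. The causes were not tested. The counts of ethylene genes in each stage, between late and early primordia and in the F test were 0 under all settings. With the replicate number as a block, *GA20OX3* in intermediate primordia kept its call (adjusted p = 0.0435), and the block changed no count of GA or ethylene genes called (1 GA gene in intermediate primordia, otherwise 0 in each stage). The change of *GA20OX3* there was negative in 26 of 26 other settings, from -1.06 to -0.54, and called in 18. Leaving out arrays could not turn its sign, because every intermediate array lay below every cortex array. The signal over background of dim probe sets limits the other values. Apart from the fit with array weights, every fit, the main one included, assumed the same spread in all groups it held. This also applies to fits that left out arrays or kept cortex replicate 1 alone.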
